A study of Mus musculus with 14 samples.

Results

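The genes described here encode the expressed xenobiotic phase I and II enzymes of the mouse duodenum. They were picked by family name (Cyp2, Cyp3a, Gst, Ugt1 or Ugt2, Sult and Ces) among probe sets that the platform annotation assigns to a single gene. Each gene was represented by its probe set with the highest mean over the 14 arrays, and a gene was kept where that mean was at least 6 on the log2 scale. Of 95 family genes measured in this way, 46 were kept: 9 Cyp2, 4 Cyp3a, 14 Gst, 5 Ugt, 4 Sult and 10 Ces genes. They belong to 7439 genes of the series that reached the same mean, out of 18193 genes with a single-gene probe set. The rule rested on family name and on the level over all arrays, so the levels below are a description, whereas it did not use the differences between conditions. The families themselves were chosen with earlier results of these data known.

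Phase I enzymes add or expose a reactive group on drugs, dietary plant compounds, steroids and bile acids. Cytochromes P450 of the Cyp2 and Cyp3a families do so by oxidation, and carboxylesterases (Ces) by cutting esters. Phase II enzymes then attach a water-soluble group: glutathione (Gst), glucuronic acid (Ugt) or sulfate (Sult). Enterocytes of the upper small intestine carry both sets of enzymes and act, before the liver, on what is eaten.

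The study used 12 weeks old male C57BL6 mice, which were fed a low-fat diet for 2 weeks before the fast. There were 7 conditions. In the HF30min, HF1h and HF3h conditions mice had been killed 30 min, 1 h or 3 h after they began to eat a high-fat meal (60% of calories from fat). In the LF30min, LF1h and LF3h conditions the meal was low in fat (10% of calories), with the same times. The Fasting condition was killed after the 12 h fast that all mice underwent and received no meal. Mucosa scraped from the duodenum of 20 mice was pooled for each condition, and RNA of each pool was hybridized to 2 arrays. Both arrays of a pool thus repeat the measurement of the same RNA, and no condition has a second pool. The errors and p-values below therefore measure the spread between arrays and not the spread between mice. Since a pool is a mixture of cells, fewer cells of a type and less RNA per cell cannot be told apart. The fasting pool is the reference of all 6 comparisons with it, so these comparisons share its 2 arrays.

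Signals of different probe sets also depend on their probes, so levels are compared between pools and not between genes. Values are log2 intensities as normalized by the authors, a difference of 1 being a 2-fold change, and errors of differences are standard errors of the limma fit. A gene was called at an adjusted p under 0.05. The 2 arrays of a pool correlated between 0.996 and 0.997 over all probe sets, and the median SD of the 46 genes within a pool was between 0.026 and 0.071. Of the enterocyte markers, 9 of 10 were measured and all 9 had a mean of at least 6. Their mean level lay between 12.64 and 12.73 in the 7 pools. Of 7 measured hepatocyte markers, 0 reached a mean of 6. Markers of neighbouring tissues did move between pools: 11 of 11 measured pancreatic acinar markers fell at HF30min (median -0.89), whereas 11 rose at HF3h (median 0.62). The acinar markers also rose at LF1h (11 of 11, median 0.65) and at HF1h (10 of 11, median 0.56). Of 8 stomach and Brunner gland markers, 8 rose at HF30min (median 2.28) and 5 at LF30min (median 1.64). At LF1h 5 of them rose (median 0.82) and at HF3h 4 (median 0.67).

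Most of the enzymes, 33 of the 46, were called in no comparison. At 30 min and 1 h no more than 1 of the 46 genes was called in a comparison, and the genes called at 3 h were lower than in the fasting pool with 1 exception. More of all probe sets were called at 3 h as well. At HF3h, 10 of the 46 genes (21.7%) were lower and 0 were higher by limma, where 5.57% of all probe sets were called in either direction. Among the genes with a mean of at least 6, which is the closer background, 13.3% were called at HF3h and 7.47% were lower. At LF3h, 7 genes were lower and 1 was higher, against 4.88% of all probe sets and 10.8% of the genes with that mean, of which 4.32% were lower. Ugt2b35, Cyp2c55, Cyp2s1, Gstm3 and Gstm1 were lower at both HF3h and LF3h, that is 5 of the 10 lower genes at HF3h and 5 of the 7 at LF3h. Both lists share the fasting arrays. At an unadjusted p under 0.05, 19 genes were lower and 2 higher at HF3h, and 15 were lower and 1 higher at LF3h. The counts at HF3h and LF3h fell when any 1 array of the fasting pool or of that fed pool was left out. Such a fit leaves 1 array in the pool and widens the error, so a call can be lost though its difference hardly moves. At LF3h the difference of Sult1a1 stayed between -0.39 and -0.38, whereas that of Gsta2 ranged from -0.68 to -0.29. The counts grew to 20 (HF3h) and 13 (LF3h) genes when only probe sets with a mean of at least 6 were fitted and adjusted. In that setting 29.5% and 27.2% of these 13281 probe sets were called.

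Earlier pools held few calls. At HF30min 1 gene was lower (0.97% of all probe sets called), at HF1h 1 gene was lower (0.953%) and at LF1h 1 gene was lower (1.49%). Each count is 2.17% of the 46 genes, near the shares called among the genes with a mean of at least 6 (1.94%, 1.95% and 2.89%). Each of these 3 counts was 0 without either fasting array, without either HF30min array at HF30min, and without LF1h replicate 2 at LF1h. At LF30min 0 of the 46 genes were called by limma (0.469%), and 4 had an unadjusted p under 0.05. Between the meals, limma called 0 genes at 30 min (0.442%), 0 at 1 h (0.191%) and 1 at 3 h (1.82%). Among the genes with a mean of at least 6 these shares were 0.968%, 0.417% and 3.94%, and 0.78% at LF30min. The unadjusted counts were 14 at 30 min, 10 of them higher at HF30min, against 4 at 1 h and 5 at 3 h. Of all probe sets, 9.99% had an unadjusted p under 0.05 at 30 min, 10.7% at 1 h and 15.3% at 3 h. Over the 9 comparisons there were 22 calls, 21 of them lower, and they came from 13 genes. The other 33 genes were called in no comparison. A test for any difference among the 7 pools called 13 genes as well, 28.3% of the 46, against 8.82% of all probe sets and 18.1% of genes with a mean of at least 6. It called 8 without HF30min replicate 1. A change of at least 2-fold occurred once, for Ugt2b35 at HF3h, where 0.393% of all probe sets were called with that size.

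Most of the differences were small. The median difference of the 46 genes from the fasting pool was 0.011 at HF30min, -0.10 at HF1h and -0.15 at HF3h. It was -0.049 at LF30min, -0.086 at LF1h and -0.10 at LF3h. The genes with a mean of at least 6 had medians of -0.037 at HF3h and 0.012 at LF3h. At HF3h, 37 of the 46 genes lay below the fasting pool in their mean, and at LF3h 34 did. Both HF3h arrays lay below both fasting arrays for 31 of the 46 genes and above them for 5. Of the 7439 genes with a mean of at least 6, 40.3% lay below in this way and 27.3% above. At LF3h 27 of the 46 genes lay below and 7 above, against 30% and 35.7% of the 7439. The classes differed in size: at HF3h the median was -0.59 for Ugt, -0.22 for Cyp2, -0.17 for Gst, -0.11 for Ces, -0.036 for Cyp3a and -0.032 for Sult. No test was made between the classes.

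**Figure D1:**
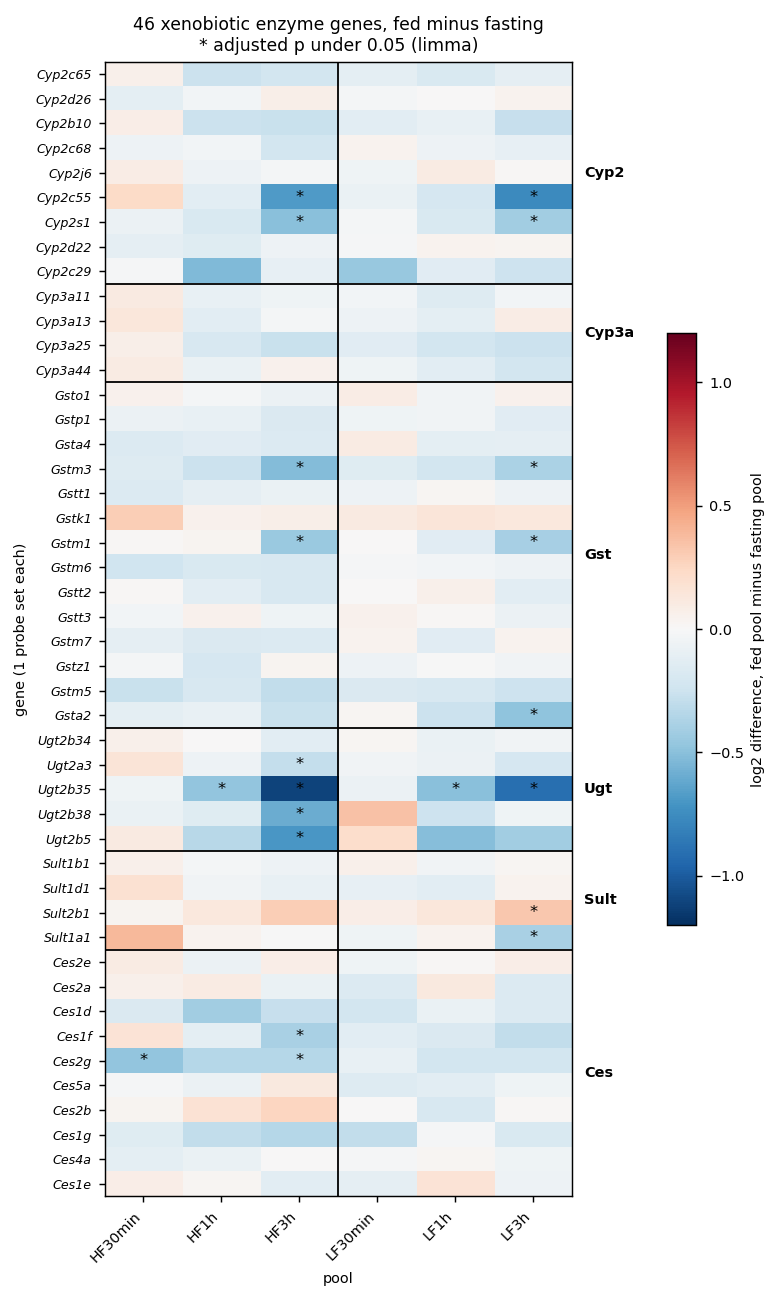
Log2 difference of each fed pool from the fasting pool (colour scale, columns) for the 46 enzyme genes (rows, grouped by class and ordered by mean level), with a star where the adjusted p was under 0.05. The 10 stars in the HF3h column and 7 of the 8 in the LF3h column mark lower values, and the 30 min columns hold 1 star in all.

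The UDP-glucuronosyltransferases were the class with the largest differences. At HF3h 4 of the 5 genes (80%) fell, where 7.47% of the genes with a mean of at least 6 were lower. Ugt2b35 fell by 2.17-fold and Ugt2b5, Ugt2b38 and Ugt2a3 by 1.63-, 1.51- and 1.22-fold. The size for Ugt2b5 rested on fasting arrays that lay apart, and its log2 difference ranged from -0.95 to -0.45 without 1 of them. At LF3h only Ugt2b35 was called, where 4.32% of the genes with a mean of at least 6 were lower. All 5 belong to family 2, whose enzymes conjugate steroids, bile acids and lipophilic drugs, and their genes lie in 1 stretch of chromosome 5. In the order of the RefSeq table (GRCm38.p6) that stretch reads Ugt2b34, Ugt2b1, Ugt2b35, Ugt2b36, Ugt2b5, Ugt2b37, Ugt2a3, Ugt2b38, Ugt2a1, Ugt2a2, Sult1b1 and Sult1d1. Of these 12 genes 7 are among the 46.

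The upstream sequences of the 5 Ugt2 genes are shown because neighbouring and closely related genes moved by different amounts. Each run is the 250 bases before the transcript start in RefSeq (GRCm38.p6), 5′ to 3′ on the strand of the gene, with the letters AGGTCA, a recognition motif of many nuclear receptors, in capitals. Ugt2b35 was taken from chr5:87000610-87000859 on the plus strand. The other runs were taken from the minus strand, at chr5:87424204-87424453 for Ugt2b38, chr5:87140341-87140590 for Ugt2b5, chr5:87337196-87337445 for Ugt2a3 and chr5:86906938-86907187 for Ugt2b34.
Ugt2b35: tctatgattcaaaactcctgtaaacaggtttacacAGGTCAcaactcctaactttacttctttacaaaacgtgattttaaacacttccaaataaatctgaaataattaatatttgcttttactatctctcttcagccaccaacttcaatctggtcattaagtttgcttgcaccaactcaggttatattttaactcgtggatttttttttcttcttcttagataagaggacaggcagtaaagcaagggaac
Ugt2b38: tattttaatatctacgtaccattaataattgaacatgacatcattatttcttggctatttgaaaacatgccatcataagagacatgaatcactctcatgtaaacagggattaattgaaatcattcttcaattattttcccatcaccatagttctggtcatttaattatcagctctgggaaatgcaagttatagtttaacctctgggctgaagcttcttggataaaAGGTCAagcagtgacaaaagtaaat
Ugt2b5: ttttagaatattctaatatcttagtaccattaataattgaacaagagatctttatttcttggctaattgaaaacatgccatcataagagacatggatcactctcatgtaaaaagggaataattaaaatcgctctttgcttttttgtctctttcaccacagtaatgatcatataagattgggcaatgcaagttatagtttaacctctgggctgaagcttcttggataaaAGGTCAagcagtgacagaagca
Ugt2a3: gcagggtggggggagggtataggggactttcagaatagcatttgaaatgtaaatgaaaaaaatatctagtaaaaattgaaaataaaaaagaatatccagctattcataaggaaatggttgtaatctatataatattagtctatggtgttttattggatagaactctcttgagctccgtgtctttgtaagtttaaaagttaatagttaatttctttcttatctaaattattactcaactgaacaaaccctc
Ugt2b34: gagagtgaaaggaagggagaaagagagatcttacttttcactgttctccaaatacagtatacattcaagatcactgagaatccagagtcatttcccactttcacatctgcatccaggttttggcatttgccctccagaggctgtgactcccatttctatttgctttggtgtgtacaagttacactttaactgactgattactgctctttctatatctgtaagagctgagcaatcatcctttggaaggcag
AGGTCA stood at -215 to -210 in Ugt2b35, at -25 to -20 in Ugt2b38 and at -22 to -17 in Ugt2b5, counted from the transcript start, and at no place in these windows of Ugt2a3 and Ugt2b34. The upstream runs of Ugt2b38 and Ugt2b5 were identical at 81.5% of positions, and the other 9 pairs at 47.5% to 58.9%. The 4 motifs named here were searched on both strands of the 250 bases before the transcript start, which are present for 40 of the 46 genes. None of their matches in these 5 genes overlapped. A gene was counted where any of its promoters matched, whereas the background shares count single promoters. AGGTCA was found in 11 of the 40 genes and in 14% of 32851 promoters of the same length. Of the 12 called genes with a window, 3 held it. GTTAAT, part of the HNF1 motif, was found in 6 of the 40 genes (6.43% of all promoters) and occurred at -54 to -49 and at -47 to -42 in Ugt2a3. TGACNNNGC, the core of the antioxidant response element, was found in 2 of the 40 (10.2%), and GCGTG, the core of the xenobiotic response element, in 9 of the 40 (28.2%). These are matches of letters only.

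Ugt2b35 decreased in steps after both meals. Its arrays gave 8.34 and 8.37 in the fasting pool, 8.33 and 8.29 at HF30min, 7.83 and 7.93 at HF1h and 7.25 and 7.24 at HF3h. After the LF meal they gave 8.25 and 8.32 at LF30min, 7.92 and 7.80 at LF1h and 7.48 and 7.43 at LF3h. The 30 min arrays were just below the fasting arrays, whereas all 1 h and 3 h arrays lay below them, the 3 h arrays lowest. The difference from the fasting pool was -0.48 ± 0.083 at HF1h (adjusted p = 0.0125) and -0.50 ± 0.083 at LF1h (adjusted p = 0.00546). At 3 h it was -1.11 ± 0.083 at HF3h (adjusted p = 2.24e-06) and -0.90 ± 0.083 at LF3h (adjusted p = 3.13e-05). HF3h lay -0.21 from LF3h, with a 95% interval of -0.39 to -0.037 (intervals here are not adjusted for the number of probe sets) and an adjusted p of 0.233, which was not called. The 1 h calls were lost without either fasting array and without 1 array of the fed pool (adjusted p up to 0.113 at HF1h and 0.0662 at LF1h), whereas the 3 h calls were kept without every array.

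Ugt2b38 was the only one of the 46 genes called between the meals. It had 6.88 and 6.95 at HF3h, against 7.49 and 7.43 at LF3h and 7.47 and 7.55 in the fasting pool. Both HF3h arrays were below all other 12 arrays, and the LF3h arrays were at the fasting level. The difference was -0.55 ± 0.087 from LF3h (adjusted p = 0.00494) and -0.59 ± 0.087 from the fasting pool (adjusted p = 9.56e-04). The earlier HF arrays gave 7.41 and 7.44 at HF30min and 7.30 and 7.43 at HF1h. The earlier LF arrays gave 7.84 and 7.88 at LF30min, the highest of all pools, and 7.32 and 7.19 at LF1h. At 30 min the difference between the meals was -0.43 ± 0.087 and was not called (adjusted p = 0.0503). The call between the meals at 3 h was lost without replicate 1 of LF3h or of HF3h, with an adjusted p up to 0.0696.

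Ugt2b5, whose upstream sequence resembles that of Ugt2b38, was near the lower limit of 6 and was the least even between arrays. It had 5.70 and 5.60 at HF3h, against 6.10 and 6.61 in the fasting pool. The fasting arrays lay apart, and both HF3h arrays were below them and below the mean of 6. The difference was -0.70 ± 0.17 (adjusted p = 0.0233), and it was lost without fasting replicate 2 or either HF3h array, with an adjusted p up to 0.24. It was -0.95 without fasting replicate 1 and -0.45 without fasting replicate 2. The other fed arrays gave 6.42 and 6.51 at HF30min, 5.86 and 6.19 at HF1h, 6.45 and 6.69 at LF30min, 6.03 and 5.66 at LF1h and 5.90 and 5.96 at LF3h. The LF3h value was not called (-0.42 ± 0.17, adjusted p = 0.197). How far probes of these closely related genes share signal was not tested.

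Ugt2a3 and Ugt2b34 varied least of the 5. Ugt2a3 had 9.40 and 9.40 at HF3h, against 9.66 and 9.72 in the fasting pool, a difference of -0.29 ± 0.078 (adjusted p = 0.0472). This call stood at the threshold and was lost without any 1 of the 14 arrays (adjusted p 0.054 to 0.254). Its remaining pools averaged 9.85 at HF30min, 9.62 at HF1h, 9.64 at LF30min, 9.62 at LF1h and 9.49 at LF3h, so that HF3h was the lowest pool. Ugt2b34 averaged 11.71 ± 0.0062 at HF3h and 11.79 ± 0.0087 at LF3h, against 11.83 ± 0.0063 in the fasting pool (SD, n = 2 arrays each). Its largest spread between pool means was 0.19, and its difference at HF3h had an interval of -0.29 to 0.045.

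**Figure D2:**
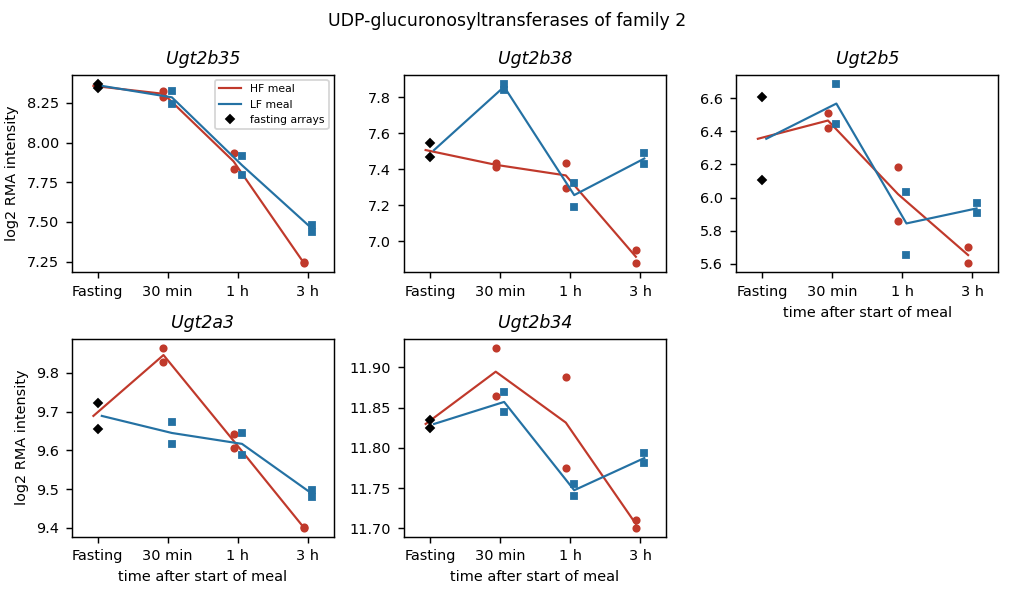
Log2 RMA intensity (vertical axis, a separate scale for each gene) of the 5 Ugt2 genes on every array against time after the start of the meal, with lines through the pool means of the HF meal (red) and LF meal (blue) and black points for the fasting arrays. Ugt2b35 descends after both meals to 7.25 and 7.24 at HF3h, while Ugt2b38 separates the meals at 3 h.

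Among the phase I oxidases, Cyp2c55 and Cyp2s1 fell at 3 h after both meals, and none of the 4 Cyp3a genes was called by limma in any comparison (1 of 4 had an unadjusted p under 0.05 at HF3h and 1 at LF3h). Of the 9 Cyp2 genes 2 (22.2%) were lower at HF3h and the same 2 at LF3h. Among the genes with a mean of at least 6, 7.47% were lower at HF3h and 4.32% at LF3h. Cyp2c55 hydroxylates arachidonic acid and is known from the mouse intestine. It had 8.28 and 8.31 at HF3h and 8.19 and 8.24 at LF3h, against 8.98 and 8.97 in the fasting pool. Every 3 h array was below every other array, and the 2 arrays of each pool were close together. The difference was -0.68 ± 0.077 at HF3h (adjusted p = 1.13e-04) and -0.76 ± 0.077 at LF3h (adjusted p = 7.26e-05). It was 0.082 between HF3h and LF3h (interval -0.084 to 0.25). At 30 min and 1 h the arrays gave 9.24 and 9.17 at HF30min, 8.87 and 8.83 at HF1h, 8.90 and 8.90 at LF30min and 8.80 and 8.76 at LF1h. Both 3 h calls were kept without every array.

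Cyp2s1, a P450 found mainly outside the liver that acts on retinoids, was also called at both HF3h and LF3h. Its arrays read 8.25 and 8.24 at HF3h and 8.23 and 8.41 at LF3h, against 8.75 and 8.73 in the fasting pool. All 4 arrays at 3 h were below the fasting arrays. The difference was -0.50 ± 0.091 at HF3h (adjusted p = 0.00485) and -0.42 ± 0.091 at LF3h (adjusted p = 0.0178). The call at LF3h was lost without either fasting array or LF3h replicate 1 (adjusted p up to 0.147). The pools at 30 min and 1 h averaged 8.67 at HF30min, 8.55 at HF1h, 8.72 at LF30min and 8.56 at LF1h.

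Cyp2c29, which forms epoxides of arachidonic acid, differed among the 7 pools (adjusted p = 0.0318) but in no single comparison. Its lowest arrays were 7.76 and 7.39 at HF1h and 7.56 and 7.74 at LF30min, against 8.09 and 8.12 in the fasting pool. The 2 HF1h arrays lay far apart. The differences were -0.53 ± 0.12 at HF1h (adjusted p = 0.0503) and -0.45 ± 0.12 at LF30min (adjusted p = 0.154). The other pools averaged 8.09 at HF30min, 8.001 at HF3h, 7.96 at LF1h and 7.85 at LF3h.

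The Cyp2 and the Cyp3a gene with the highest array signal were not called in any comparison. Cyp2c65, the highest Cyp2 signal, averaged 11.59 ± 0.0068 at HF3h and 11.70 ± 0.002 at LF3h, against 11.81 ± 0.04 in the fasting pool (SD, n = 2 arrays each). Its difference at HF3h was -0.22, with an interval of -0.42 to -0.023 and an adjusted p of 0.222. Cyp3a11, the mouse counterpart of the main human drug-metabolizing P450 and the highest signal of the 46 genes, averaged 13.44 ± 0.055 at HF3h and 13.46 ± 0.021 at LF3h, against 13.49 ± 0.01 in the fasting pool. Its difference at HF3h was -0.051 (interval -0.22 to 0.12). Over the 4 Cyp3a genes the spread between pool means had a median of 0.29 and a maximum of 0.34, and the genes with a mean of at least 6 had a median of 0.29.

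For Cyp2b10, a drug-inducible P450 that follows the receptor CAR, the probe sets disagreed about the call. Its highest probe set was -0.27 at HF3h and -0.28 at LF3h from the fasting pool and was not called (adjusted p = 0.117 and 0.112). Its 2 other probe sets were called at both times, 1 with -0.32 at HF3h and -0.36 at LF3h (adjusted p = 0.034 and 0.021) and 1 with -0.43 and -0.39 (adjusted p = 0.0074 and 0.016). All 3 pointed the same way. At HF1h the last of these was called as well (-0.41, adjusted p = 0.0325), and the one before it was -0.36 (adjusted p = 0.0527). Of the Cyp3a genes, Cyp3a25 came nearest to a call, with -0.26 at HF3h and -0.26 at LF3h and an adjusted p of 0.052 among the 7 pools. Cyp3a13, a P450 of the mouse intestine, was -0.021 at HF3h and 0.089 at LF3h. The 4 remaining Cyp2 genes, Cyp2c68, Cyp2j6, Cyp2d22 and Cyp2d26, were not called, and their pool means spanned between 0.16 and 0.27.

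Glutathione transferases join glutathione to electrophiles, and the 2 genes of this class called at 3 h after both meals belong to the Mu subclass. Of the 14 Gst genes 2 (14.3%) fell at HF3h and 3 (21.4%) at LF3h. Among the genes with a mean of at least 6, 13.3% were called at HF3h and 7.47% were lower. At LF3h these shares were 10.8% and 4.32%. The Gst count at HF3h is thus near the share called in either direction. Gstm3 arrays gave 10.82 and 10.84 at HF3h and 10.96 and 10.99 at LF3h, against 11.38 and 11.33 in the fasting pool. Gstm3 was below the fasting arrays on every fed array, lowest at HF3h. The difference was -0.52 ± 0.079 at HF3h (adjusted p = 0.00119) and -0.38 ± 0.079 at LF3h (adjusted p = 0.0138). The call at LF3h was lost without either fasting or either LF3h array (adjusted p up to 0.129), whereas the call at HF3h was kept without every array. The pools at 30 min and 1 h averaged 11.20 at HF30min, 11.10 at HF1h, 11.21 at LF30min and 11.13 at LF1h.

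Gstm1 moved by a similar amount. It read 8.32 and 8.19 at HF3h and 8.24 and 8.36 at LF3h, against 8.69 and 8.71 in the fasting pool. The 4 arrays at 3 h were the lowest of the 14. The difference was -0.44 ± 0.086 at HF3h (adjusted p = 0.00728) and -0.40 ± 0.086 at LF3h (adjusted p = 0.0174). Of its 2 other probe sets with a mean of at least 6, 1 was called at both 3 h pools (-0.45 at HF3h and -0.52 at LF3h) and 1 at neither (-0.17 and -0.35, adjusted p = 0.45 and 0.072). Mu-class genes share much of their sequence, so these values are uncertain where probes match more than 1 of them, which was not tested. Both calls were lost without either fasting array. The call at HF3h was also lost without HF3h replicate 2 (adjusted p up to 0.0813), and that at LF3h without either LF3h array (adjusted p up to 0.132).

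Gsta2, an alpha-class enzyme, was called at LF3h only. Its arrays gave 6.47 and 6.49 at HF3h and 6.46 and 6.07 at LF3h, against 6.74 and 6.76 in the fasting pool. LF3h replicate 2 lay far below LF3h replicate 1, which was at the level of the HF3h arrays. The difference at LF3h was -0.49 ± 0.12 (adjusted p = 0.0338) and without that replicate -0.29 (adjusted p = 0.334). The difference at HF3h was -0.27 (adjusted p = 0.256). The other pools averaged 6.64 at HF30min, 6.66 at HF1h, 6.77 at LF30min and 6.49 at LF1h.

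The 11 other Gst genes were not called. Gsto1, an omega-class enzyme and the highest Gst signal, averaged 12.22 ± 0.013 at HF3h and 12.34 ± 0.01 at LF3h, against 12.29 ± 0.028 in the fasting pool (SD, n = 2 arrays each). Its difference at HF3h was -0.068, with an interval of -0.23 to 0.094. The 10 remaining genes had pool means that spanned between 0.13 (Gstt3, theta class) and 0.30 (Gstm5, Mu class). The 3 other Mu-class genes, Gstm5, Gstm6 and Gstm7, differed from the fasting pool by -0.30, -0.19 and -0.17 at HF3h, with adjusted p of 0.165, 0.407 and 0.44. Gstk1, the kappa-class enzyme of mitochondria and peroxisomes, was highest at HF30min (0.30, adjusted p = 0.205). Gstp1, Gsta4, Gstt1, Gstt2 and Gstz1 complete the class, and their differences at HF3h lay between -0.19 and 0.029.

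The sulfotransferases held the only gene that rose. Sult2b1, which sulfates cholesterol and other hydroxysteroids, had 9.91 and 9.94 at HF3h and 9.93 and 9.97 at LF3h, against 9.56 and 9.70 in the fasting pool. All 4 arrays at 3 h were above the 10 others. The difference was 0.30 ± 0.083 at HF3h, which missed the threshold (adjusted p = 0.0556), and 0.32 ± 0.083 at LF3h (adjusted p = 0.0397). The call at LF3h was lost without any of 8 arrays, with an adjusted p up to 0.329. The other pools averaged 9.66 at HF30min, 9.76 at HF1h, 9.70 at LF30min and 9.76 at LF1h.

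Sult1a1, the phenol sulfotransferase, fell at LF3h and was called in no HF pool. Its arrays gave 6.46 and 6.55 at HF30min, 6.16 and 6.15 at HF1h and 6.23 and 5.99 at HF3h. After the LF meal they gave 5.98 and 6.14 at LF30min, 6.12 and 6.19 at LF1h and 5.72 and 5.73 at LF3h, and the fasting arrays 6.11 and 6.12. The HF30min arrays were the highest of the 14 and the LF3h arrays the lowest. The fall at LF3h was called (-0.39 ± 0.10, adjusted p = 0.0355) and was lost without either array of either pool (adjusted p up to 0.178). The value at HF30min was 0.39 ± 0.10 (adjusted p = 0.0847). Between the meals it was 0.44 at 30 min and 0.38 at 3 h, neither called (adjusted p = 0.0796 and 0.0657).

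Sult1b1, a sulfotransferase for thyroid hormones and phenols and the highest signal of its class, averaged 11.44 ± 0.052 at HF3h and 11.52 ± 0.027 at LF3h, against 11.50 ± 0.10 in the fasting pool (SD, n = 2 arrays each). Its difference at HF3h had an interval of -0.24 to 0.12. Sult1d1, which acts on catecholamines in mice, was highest at HF30min (11.57 and 11.68), against 11.42 and 11.46 in the fasting pool, and was not called (0.18, adjusted p = 0.414). Sult1b1 and Sult1d1 end the stretch of chromosome 5 that holds the Ugt2 genes, and neither was called where 4 of their 5 Ugt2 neighbours among the 46 fell.

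Of the 10 carboxylesterases 2 (20%) were lower at HF3h. Among the genes with a mean of at least 6, 13.3% were called there and 7.47% were lower. All 10 genes lie on chromosome 8. Ces2g, an intestinal carboxylesterase of the second family, was the only one of the 46 genes called at HF30min. It had 7.98 and 8.02 at HF30min, 8.14 and 8.11 at HF1h and 8.10 and 8.16 at HF3h. After the LF meal it had 8.36 and 8.41 at LF30min, 8.26 and 8.25 at LF1h and 8.21 and 8.29 at LF3h, and 8.50 and 8.45 in the fasting pool. All 12 fed arrays were below the fasting arrays, and the HF30min arrays were lowest. The difference was -0.47 ± 0.079 at HF30min (adjusted p = 0.0092) and -0.34 ± 0.079 at HF3h (adjusted p = 0.0209). HF30min was -0.39 from LF30min, which was not called (adjusted p = 0.0554). The HF30min pool is also the one in which 11 of 11 acinar markers were lower and 8 of 8 stomach and Brunner gland markers higher than in the fasting pool, and their part in this value was not tested. The calls were lost without either fasting array or either array of the fed pool (adjusted p up to 0.127 at HF30min and 0.151 at HF3h).

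Ces1f read 8.33 and 8.37 at HF3h and 8.45 and 8.44 at LF3h, against 8.72 and 8.77 in the fasting pool. The 4 arrays at 3 h were the lowest of the 14, and the highest were 8.92 and 8.89 at HF30min. The difference was -0.39 ± 0.086 at HF3h (adjusted p = 0.0158) and -0.30 at LF3h, which was not called (adjusted p = 0.0684). The call at HF3h was lost without either array of either pool (adjusted p up to 0.119). The remaining pools averaged 8.62 at HF1h, 8.62 at LF30min and 8.57 at LF1h.

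Ces2b differed among the 7 pools at the edge of the threshold (adjusted p = 0.0494) and in no single comparison, with 7.02 and 6.997 at HF3h as the highest pool and 6.54 and 6.57 at LF1h as the lowest, against 6.64 and 6.85 in the fasting pool. Ces2e, the highest signal of the class, averaged 10.71 ± 0.0027 at HF3h and 10.72 ± 0.016 at LF3h, against 10.64 ± 0.025 in the fasting pool (SD, n = 2 arrays each). Its difference at HF3h had an interval of -0.12 to 0.28. The other 6 genes, Ces1d, Ces1e, Ces1g, Ces2a, Ces4a and Ces5a, were not called, and their pool means spanned between 0.15 and 0.42. Ces1d, which hydrolyses stored triglyceride in the liver, was lowest at HF1h (-0.42, adjusted p = 0.0513), and Ces1g was -0.34 at HF3h (adjusted p = 0.148).

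**Figure D3:**
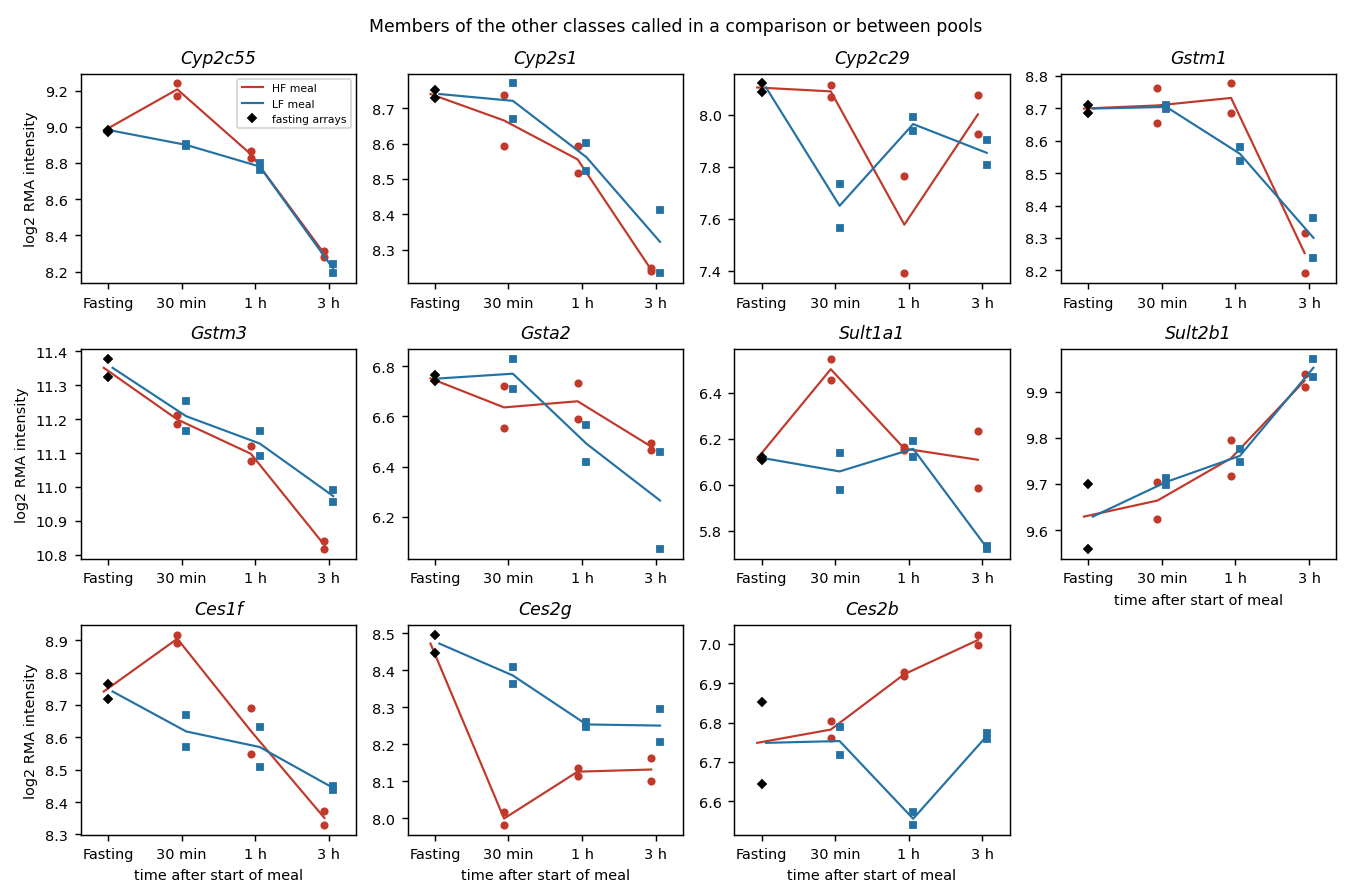
Log2 RMA intensity (vertical axis, a separate scale for each gene) of the Cyp2, Gst, Sult and Ces genes called in a comparison or among the pools, on every array against time after the start of the meal, with lines through the pool means of the HF meal (red) and LF meal (blue) and black points for the fasting arrays. Cyp2c55, Cyp2s1, Gstm1 and Gstm3 descend after both meals by 3 h, Sult2b1 ascends, and Ces2g is lowest at HF30min with 7.98 and 8.02.

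Genes near the limit on the mean level were few. Just inside it were Ces1e with a mean of 6.001, Sult1a1 and Ugt2b5 with 6.12 and Ces4a with 6.13. Just outside were Gstm4 with 5.71, Gstm2 with 5.65 and Ugt2b36 with 5.58. Ugt2b36, which lies between Ugt2b35 and Ugt2b5, was called lower at HF3h by limma (-0.46, adjusted p = 0.0317). Gstm4 and Gstm2 were not called there (adjusted p = 0.221 and 0.798). Ces1e alone depended on its highest pool, since its mean without that pool was 5.97, and it was called nowhere. By class, the genes below the limit were 26 of 35 Cyp2, 1 of 5 Cyp3a, 7 of 21 Gst, 3 of 8 Ugt, 9 of 13 Sult and 3 of 13 Ces genes. Of the 46 probe sets 7 carry a suffix (_s_at or _x_at) that marks probes shared with other transcripts, among them those of 3 called genes, and 5 carry _a_at, which marks alternative transcripts of 1 gene.

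Genes that supply or serve these enzymes were followed in 4 lists. The lists were written from general knowledge but with earlier results of these data known, so their counts are a description. Of 18 measured cofactor genes, which make glutathione, UDP-glucuronic acid and sulfate donors or defend against oxidants, 4 were lower at HF3h and 2 at LF3h, with 0 higher by limma (0 and 2 at an unadjusted p under 0.05). For this and the next 3 lists the background is 13.3% called at HF3h and 10.8% at LF3h among the genes with a mean of at least 6, so that 2 of 18 at LF3h is near it. Of all probe sets 5.57% and 4.88% were called. The lists were not filtered on level: 15 of 18 cofactor genes, 4 of 7 efflux pumps, 14 of 14 regulators and 23 of 28 other enzymes reached that mean. Gclc, the catalytic subunit of the first enzyme of glutathione synthesis, had 9.22 and 9.39 at HF3h and 9.52 and 9.67 at LF3h, against 10.42 and 10.47 in the fasting pool. All fed arrays were below the fasting ones. The difference was -1.14 ± 0.09 at HF3h (adjusted p = 4.08e-06) and -0.85 ± 0.09 at LF3h (adjusted p = 1.06e-04). It had already fallen at HF30min (-0.52, adjusted p = 0.0116) and at HF1h (-0.65, adjusted p = 0.00203). Nqo1, a quinone reductase, fell at HF3h (-0.49 ± 0.10, adjusted p = 0.0119), a call lost without either fasting array or HF3h replicate 2. Hmox1, heme oxygenase, varied among the pools by 0.53 with a mean of only 5.73.

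Efflux pumps carry conjugates and drugs back to the gut lumen or to the blood. Of 7 measured, 2 were lower at HF3h and 2 at LF3h. Abcc2, which exports glucuronides and glutathione conjugates, had 9.48 and 9.55 at HF3h and 9.58 and 9.55 at LF3h, against 10.49 and 10.61 in the fasting pool. It fell by 2.05-fold at HF3h (adjusted p = 1.08e-05) and by 1.98-fold at LF3h (adjusted p = 3.28e-05). Abcb1a, the drug pump P-glycoprotein, was -0.33 at HF3h and -0.50 at LF3h (adjusted p = 0.0207 and 0.002). Its call at HF3h was lost without either fasting array or either HF3h array, with differences between -0.36 and -0.31. Abcc3, a pump of the basolateral side, was not called at 3 h (-0.18 and -0.22).

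Of 14 measured regulators of these enzymes, 4 were lower and 1 higher at HF3h, and 3 were lower and 1 higher at LF3h. Nr1i2, the pregnane X receptor that drives Cyp3a and other drug-metabolism genes, had 7.53 and 7.40 at HF3h and 7.18 and 7.30 at LF3h, against 7.90 and 7.90 in the fasting pool (differences -0.43 and -0.66, adjusted p = 0.0117 and 9.60e-04). Vdr, the vitamin D receptor, had 9.96 and 10.04 at HF3h and 9.85 and 9.90 at LF3h, against 10.80 and 10.87 in the fasting pool (differences -0.84 and -0.96, adjusted p = 3.49e-05 and 1.90e-05). Both were lowest at 3 h after either meal. Ppara, the fatty acid receptor, was -1.0 at HF3h and -0.94 at LF3h. The call of Nr1i2 at HF3h was lost without either fasting array or HF3h replicate 2 (adjusted p up to 0.111).

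Of 28 measured phase I and II genes of other families, 6 were lower at HF3h and 4 at LF3h, and 0 were higher by limma or at an unadjusted p under 0.05. Cyp1a1, the P450 induced through the aryl hydrocarbon receptor, was at or below -0.85 from the fasting pool in all 6 fed pools and reached -1.91 at HF30min. Mgst1, a membrane-bound glutathione transferase, rose at HF30min (10.29 and 10.38, against 9.81 and 9.88 in the fasting pool, adjusted p = 0.0226), in the pool with the highest stomach and Brunner gland markers, whose part was not tested. Akr1b8, an aldo-keto reductase, varied by 0.81 among the pools and was not called at 3 h.

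**Figure D4:**
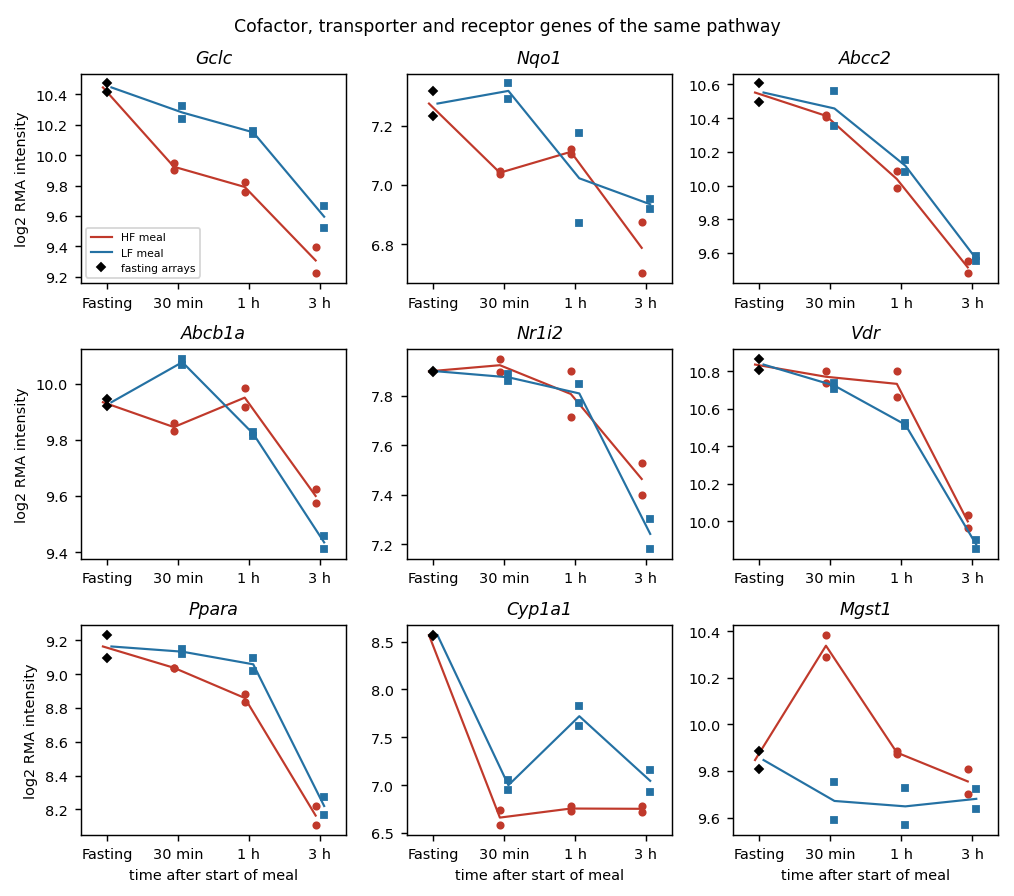
Log2 RMA intensity (vertical axis, a separate scale for each gene) of cofactor, transporter, receptor and other phase I and II genes on every array against time after the start of the meal, with lines through the pool means of the HF meal (red) and LF meal (blue) and black points for the fasting arrays. Gclc, Abcc2, Nr1i2, Vdr and Ppara are lowest at 3 h after both meals, whereas Cyp1a1 is low from 30 min on and Mgst1 peaks at HF30min.

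Cell type markers were followed in the same 3 h pools. The median of the 9 enterocyte markers differed from the fasting pool by -0.025 at HF3h (1 higher, 0 lower) and 0.061 at LF3h (0 higher, 1 lower). Single enterocyte markers ran from -0.18 to 0.33 at HF3h and from -0.33 to 0.24 at LF3h. Their mean level was 12.7 in both pools, and whether signals that high follow a change in cell number was not tested. The acinar markers were higher at HF3h (median 0.62, 11 of 11 called), whereas at LF3h their median was -0.24 with 1 of 11 called. The stomach and Brunner gland markers had medians of 0.67 at HF3h (4 of 8 higher) and -0.26 at LF3h (3 of 8 lower). Of 6 adipocyte markers 3 were higher at HF3h and 1 at LF3h. Of 5 crypt markers 1 was lower at HF3h (median -0.28) and 0 were called at LF3h (median -0.0056). Of 7 goblet and Paneth cell markers 2 were lower at HF3h (median -0.026) and 0 were called at LF3h (median -0.071). Of 5 B and plasma cell markers 1 was lower at HF3h (median -0.16) and 1 higher at LF3h (median 0.034). The part of other cells in these values was not tested.

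**Figure D5:**
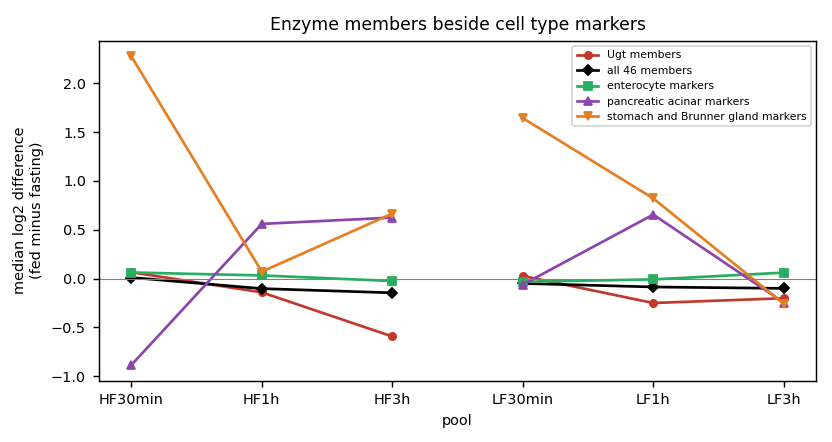
Median log2 difference of each fed pool from the fasting pool (vertical axis) for the 5 Ugt genes, all 46 enzyme genes, and the markers of enterocytes, pancreatic acinar cells and stomach with Brunner gland (points joined within each meal). The enterocyte median stays between -0.03 and 0.06 while the Ugt median reaches -0.59 at HF3h and the marker medians of the other tissues range from -0.89 to 2.28.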

How the data were processed

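RNA of 7 pools of duodenal mucosa was hybridized to 14 arrays (Affymetrix MOE 430 v2.0), 2 per pool. The deposited values are log2 intensities per probe set that the authors background-subtracted and normalized by Robust Multiarray Analysis (RMA), with the log base inferred from RMA. Version and annotation release of the software are not given in the sources used here. The value table holds no read depth, so the number of arrays limits the precision.

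Of 45101 probe sets 64 controls were set aside. The platform annotation names 1 gene for 34945 probe sets, several for 932 and none for 9160. In limma 3.58.1 (R 4.3.3) 1 mean per pool was fitted to the remaining 45037 probe sets, with 7 residual and 6.4 prior degrees of freedom. Each comparison was adjusted by Benjamini-Hochberg over all 45037, and a call was an adjusted p under 0.05, as in the moderated F-test over the 7 pools. Intervals are 95% intervals of the fit without adjustment. The procedure was tested on simulated data.

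The enzyme families, the gene and marker lists and the motifs were chosen with earlier results of these data known. Genes were named where they changed at least 2-fold, had the highest mean of their class, were among the 5 widest of a class (3 of a list) past the F-test, or lay next to the mean of 6. Other called or described genes were chosen once the values were known. Alternatives were a p of 0.01, a 2-fold minimum, averaged probe sets of a gene, probe sets without the suffixes _s_at, _x_at and _a_at, a mean of at least 6, quantile normalization, the replicate number as a block, a variance trend, and each array left out. Promoter sequences are those of RefSeq (GRCm38.p6), read with Python 3.11.15. Figures used matplotlib 3.10.9. The tag libraries and protein blots of the study were not analysed here.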

Additional observations from a re-analysis of the deposited data

Results flagged for a closer look

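A few results differed between the meals by the direct comparison in the limma fit. Ugt2b38 was lower at HF3h than at LF3h (-0.545 on the log2 scale, adjusted p = 0.00494), with 6.88 and 6.95 at HF3h and 7.49 and 7.43 at LF3h. Cyp1a1 was lower at HF1h than at LF1h (-0.9654, adjusted p = 8.89e-04), with 6.78 and 6.73 at HF1h and 7.82 and 7.62 at LF1h. Mgst1 was higher at HF30min than at LF30min (0.6658, adjusted p = 0.00396), with 10.29 and 10.38 at HF30min and 9.59 and 9.75 at LF30min. Each pair of pools did not overlap in its arrays, which was common. Among the 7439 genes with a mean of at least 6, 43.6% had both HF3h arrays below both LF3h arrays. At 1 h 27.3% had both HF arrays below both LF arrays, and at 30 min 27.5% had them above.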

How the results depend on the processing

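Of the 22 calls, 19 were kept, wherever the gene was still measured, under the 6 alternatives that change the values, probe sets or model, and 7 also without each array in turn. Stricter thresholds are not counted in this. Those 7 were Ugt2b35 and Cyp2c55 at HF3h and LF3h, and Gstm3, Cyp2s1 and Ugt2b38 at HF3h. Without an array the number of genes called ranged from 0 to 1 at HF30min, HF1h and LF1h and between HF3h and LF3h, from 5 to 9 at HF3h, from 2 to 8 at LF3h, and from 8 to 12 over the 7 pools. At an adjusted p under 0.01 6 genes were called at HF3h, 2 at LF3h, 0 at HF1h and 5 over the pools. With a 2-fold minimum 1 gene was called at HF3h and 1 over the pools, and 0 at HF30min, HF1h, LF1h, LF3h and between HF3h and LF3h. With a gene's probe sets averaged 5 were called at HF1h, 2 at HF30min, 4 between HF30min and LF30min and 2 between HF3h and LF3h. With the 3 suffixed kinds of probe set (_a_at, _s_at, _x_at) left out, 2 were called at HF1h, and Gstm3 at LF3h was lost (adjusted p = 0.0985). Quantile normalization gave 3 at HF1h and 2 between HF30min and LF30min.

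With only probe sets of a mean of at least 6, the counts were 4, 6 and 20 at HF30min, HF1h and HF3h, 2, 5 and 13 at LF30min, LF1h and LF3h, 8, 2 and 4 between the meals at 30 min, 1 h and 3 h, and 23 over the pools. With a variance trend they were 6, 8 and 18, then 2, 5 and 14, then 12, 3 and 2, and 29. At HF3h 29.5% of the 13281 probe sets with that mean were called, and with a variance trend 25% of the 7439 genes with that mean, against 13.3% without it. Their splits were 2 higher and 18 lower, and 1 higher and 17 lower at HF3h.

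Akr1b8 at HF3h changed sign without HF3h replicate 2, at 0.0932, and was -0.3048 without replicate 1, against -0.11 with all arrays (not called). Arrays with the same number did not deviate together in a consistent way (21 pairs of pools, correlations -0.33 to 0.27, median 0.023, 4 over 0.1). A batch shared by arrays of different numbers was not tested. With the replicate number as a block, 9 genes were called at HF3h, 7 at LF3h and 12 over the pools, with 1 each at HF30min, HF1h, LF1h and between HF3h and LF3h. Sult2b1 at LF3h (adjusted p = 0.051) and Ugt2a3 at HF3h (adjusted p = 0.063) were lost. The causes were not tested. Limits are 1 pool per condition and probe sets near the lower signal limit.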

Other observations

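The Ugt1a enzymes, which conjugate bilirubin and phenols, could not be counted among the 46 genes because their 3 probe sets each match 8 genes of that locus. Their means were 12.69, 11.75 and 11.35. At HF3h they differed from the fasting pool by -0.093, -0.20 and -0.18, and at LF3h by 0.0024, -0.13 and -0.092. The F-test over the 7 pools called none of them (adjusted p 0.51 to 0.77), and 0 of the 3 had an unadjusted p under 0.05 in that test. In single comparisons none was called, and the probe set with a mean of 11.75 had an unadjusted p of 0.0242 at HF3h and 0.0397 at HF1h, and that with 11.35 one of 0.0317 at HF1h.

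Below the limit on the mean, Sult1c2, a sulfotransferase of the digestive tract, differed among the 7 pools (adjusted p = 0.00838). It averaged 4.73 at HF30min and 4.84 at LF30min, against 4.28 in the fasting pool, with a mean of 4.40 over the 14 arrays. The stomach and Brunner gland markers were also higher in these 2 pools. They were higher too at LF1h (5 of 8, median 0.82) and HF3h (4 of 8, median 0.67), where Sult1c2 averaged 4.31 and 4.40. The part of these markers' tissues in the Sult1c2 values was not tested.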
